A study of Drosophila melanogaster with 2 samples.

Results

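The genes described here encode the subunits of the vacuolar ATPase of Drosophila melanogaster. They are the 33 protein-coding genes of the BDGP6 annotation whose symbol starts with Vha, out of 13981 protein-coding genes. The rule uses the gene name alone and no measured value. The data are lists of genome regions from chromatin immunoprecipitation with sequencing of Hnf4, a nuclear receptor known for its role in lipid and energy metabolism. Both samples belong to 1 group of 2 biological replicates. They come from a single transgenic line, strain Hnf4-GFP, which makes Hnf4 with green fluorescent protein at its C terminus. Larvae of both sexes were pooled whole in the third instar, during wandering, their age is given as unknown, and no treatment is listed. The sample descriptions state an antibody against green fluorescent protein, whereas the antibody field names Hnf4. There is thus no contrast between conditions, and the comparisons are between genes and between replicates.

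The vacuolar ATPase is a rotary proton pump. Its cytosolic V1 sector, built of subunits A to H, splits ATP, and its membrane sector V0, with subunits a, c, c'', d and e, carries protons across the membrane. The pump acidifies lysosomes and endosomes in all cells, and in insects it also energises the apical membranes of Malpighian tubule and midgut cells. Most subunits have several gene copies in the fly. From general knowledge of the family, and not from these data, 15 genes were classed as broadly expressed, 7 as testis forms, 1 as a gut form (Vha100-4) and 1 as a neuronal form (Vha100-1). The other 9 were left unassigned.

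Each region carries the authors' signal value, their own measure of its enrichment, which describes regions within 1 list. The optimal list held 5817 regions with signal values from 66.6 to 3161, and the relaxed lists, which also hold background, held 30000 regions for the pooled replicates, 29999 for replicate 1 and 30000 for replicate 2. Of the 5817 optimal regions, 5817 were among the strongest entries of the pooled list. Regions on the mitochondrial chromosome, which holds no Vha gene, numbered 29 in replicate 1 and 0 in replicate 2. A gene was counted as having a promoter region if a summit lay within 1000 bp of one of its transcription start sites (TSSs). The lists hold no read counts, so the depth is unknown. In what follows, a gene's region is a promoter region unless another place is given. A region missing from a list had no listed value, which is not a value of 0. Whole larvae mix all tissues, so a strong region in few cells and a weak one in many cannot be told apart.

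Hnf4 regions lay at the promoters of 7 of the 33 Vha genes, and these 7 were all classed as broadly expressed. The share of 21.2% was close to the 22.9% of all protein-coding genes with an optimal promoter region, so the count for the family was near the background. Among the broadly expressed genes the count was 7 of 15, or 46.7%. Among the testis and gut forms it was 0 of 8, and it was 0 of 9 among the unassigned genes and 0 for Vha100-1. No test of the difference between classes was run, because the genes and classes were chosen with earlier results of these data known. The 8 testis and gut forms each had 1 annotated TSS, as did 10 of the 15 broadly expressed genes, and the part of TSS number in the difference was not tested.

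**Figure D1:**
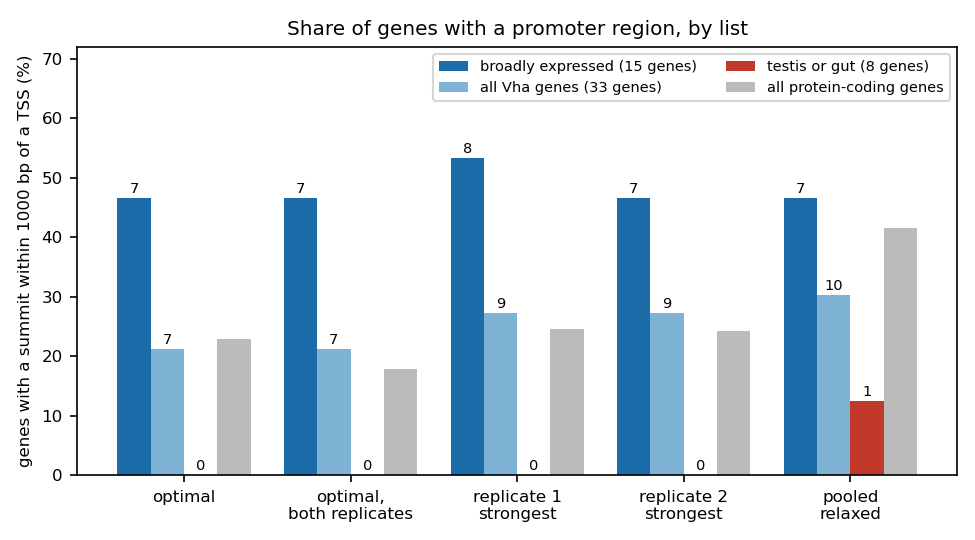
Share of genes with a summit within 1000 bp of a TSS (vertical axis, percent) in 5 lists, for the broadly expressed, all, and testis or gut Vha genes and for all protein-coding genes (grey). The number above a bar is the number of genes; replicate "strongest" lists hold the 5817 strongest regions of that replicate, and the testis or gut bar is at 0 in the first 4 lists and at 1 gene in the pooled relaxed list.

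The count of broadly expressed genes was 7 in the optimal and pooled lists, 8 in the strongest regions of replicate 1 and 7 in those of replicate 2. In the pooled relaxed list, where 41.5% of all genes had a promoter region, 10 of the 33 Vha genes had one. Of the 15 broadly expressed genes 7 had one there, or 46.7%, near the 41.5% of all genes. These 7 were the ones with an optimal region. The 8 remaining broadly expressed genes therefore lacked a weak pooled region at their promoters too. Among these 8, VhaSFD and VhaAC39-1 had a promoter region in the replicate 1 list alone, of 74.5 and 12.2. Across all genes, 55.3% of those with a pooled relaxed promoter region also had an optimal one. In the 5817 strongest regions of replicate 1, with 24.5% of all genes, 9 Vha genes had a promoter region. In those of replicate 2, with 24.2% of all genes, the count was 9 as well. All 7 genes kept their region when only optimal regions supported by the strongest regions of both replicates were counted, a set that covered 17.9% of all genes. In the full relaxed lists 13 Vha genes had a promoter region in replicate 1, beside 44.7% of all genes, and 13 in replicate 2, beside 45.0%. A narrower window of 500 bp left 7 genes, beside 19.8% of all genes, and so did any overlap with the window, beside 23.7%. The window of 2000 bp gave 8, beside 27.3%, and the strongest 50% of the optimal list gave 5, beside 14.8%, without Vha16-1 and Vha68-2.

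The 7 regions covered part of the pump. In V1, regions lay at 1 gene each for subunits A, B, C and D, and at no gene for E, F, G and H. In V0, regions lay at 1 gene each for subunits a, c and e, and at none for c'' and d. Neither of the 2 accessory genes, VhaAC45 and VhaAC45RP, had one. By sector the counts were 4 of 13 genes for V1, or 30.8%, and 3 of 18 for V0, or 16.7%, beside 22.9% of all genes. The sectors differ in how many broadly expressed genes they hold, so these shares mix sector and class. Of the broadly expressed V0 genes, 3 had an optimal promoter region, and VhaPPA1-1 and VhaAC39-1 lacked one. Of those of V1, 4 had one, and Vha68-1, Vha26, Vha14-1, Vha13 and VhaSFD lacked one. Within this class the share was thus higher in V0 than in V1, the reverse of the sector shares. Neither difference was tested. The strongest promoter region of the 7 genes had a median signal value of 189 and ran from 97.0 to 522. The median of the 3207 genes with an optimal promoter region was 144.

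The sequences at 4 of the regions are given because each differs in the letters near its summit or TSS, out of 7 motifs searched for. They are from the Release 6 reference (dm6), 5′ to 3′ on the strand stated. Vha68-2 is shown 100 bp either side of its summit (chr2L:12974054-12974254, plus strand), with GTGTGACC, the reverse complement of GGTCACAC, the site of motif 1 binding protein (M1BP), in capitals. Vha55 is shown from the Snx3 TSS to its own (chr3R:12627830-12628030, minus strand), with the DNA replication-related element (DRE) TATCGATA in capitals. The DRE begins 189 bp before the first Vha55 TSS, at the Snx3 end of the stretch. Vha100-2 is shown for 300 bp upstream of its first TSS (chr3R:18399170-18399469, minus strand), with GAGAGAG, bound by GAGA factor, in capitals 109 bp before the TSS. VhaM9.7-b is shown from the COX8 TSS onward (chr3L:21539448-21539647, plus strand), and none of the 7 was found in the 100 bp on either side of its summit.
Vha68-2: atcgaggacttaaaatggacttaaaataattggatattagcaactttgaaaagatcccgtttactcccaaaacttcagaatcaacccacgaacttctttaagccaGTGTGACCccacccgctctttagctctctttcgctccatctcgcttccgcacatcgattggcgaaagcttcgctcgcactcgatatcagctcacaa
Vha55: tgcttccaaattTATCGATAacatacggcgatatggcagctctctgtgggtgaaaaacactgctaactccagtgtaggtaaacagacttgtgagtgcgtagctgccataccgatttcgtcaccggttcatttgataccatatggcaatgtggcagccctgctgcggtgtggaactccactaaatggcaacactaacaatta
Vha100-2: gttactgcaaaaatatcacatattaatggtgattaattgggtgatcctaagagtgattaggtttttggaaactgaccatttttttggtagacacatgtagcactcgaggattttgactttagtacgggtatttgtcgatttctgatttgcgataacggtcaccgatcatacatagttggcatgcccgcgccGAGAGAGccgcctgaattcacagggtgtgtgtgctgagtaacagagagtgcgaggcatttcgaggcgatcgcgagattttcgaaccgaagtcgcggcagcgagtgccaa
VhaM9.7-b: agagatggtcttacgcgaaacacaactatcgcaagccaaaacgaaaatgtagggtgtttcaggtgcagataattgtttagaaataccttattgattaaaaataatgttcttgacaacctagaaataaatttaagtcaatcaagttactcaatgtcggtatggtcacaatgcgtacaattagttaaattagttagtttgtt

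**Figure D2:**
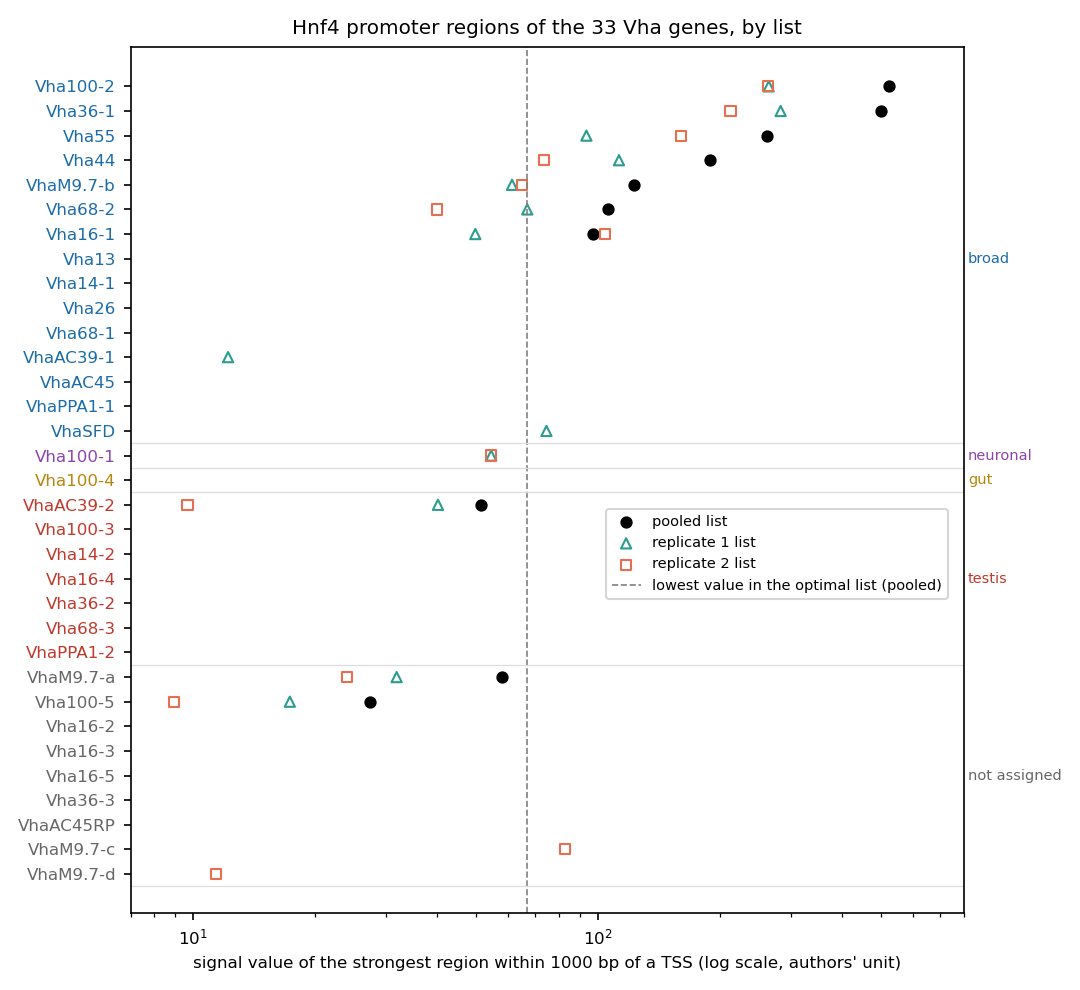
Signal value of the strongest region within 1000 bp of a TSS (horizontal log axis, authors' unit) for each of the 33 Vha genes in the pooled, replicate 1 and replicate 2 lists, grouped by expression class; the markers of a gene can be different regions, and a missing marker means no listed region. The 7 genes to the right of the dashed line at 66.6 in the pooled list were all classed as broadly expressed.

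Subunits A and B form the ATP-splitting head of V1. Vha68-2 (FBgn0263598), 1 of 3 genes for the catalytic subunit A, had a region at chr2L:12973956-12974351 with a signal value of 106 in the optimal list, 66.8 in replicate 1 and 40.1 in replicate 2. Its summit lay 168 bp upstream of the first of 5 TSSs, between genes. The region was in the weaker part of the list, at rank 3233 of 5817, and was listed in both replicates. The other A genes had none in any list, the broadly expressed Vha68-1 and the testis form Vha68-3. Vha68-3 starts 178 bp after the end of Vha68-2, and its nearest optimal summit was the Vha68-2 one, 4632 bp upstream of its TSS. For Vha68-1 the nearest was also that region, 29953 bp away.

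Vha55 (FBgn0005671) is the only gene for the B subunit, which shares the nucleotide sites with A. Its region at chr3R:12627722-12627956 had a signal value of 262 in the optimal list, 93.5 in replicate 1 and 160 in replicate 2. The summit lay 37 bp upstream of the first TSS of Vha55 and 165 bp upstream of the TSS of Snx3, a sorting nexin gene on the other strand. Replicate 2 ranked it higher, at 370, than replicate 1, at 1980. A weaker pooled region that was not optimal, at rank 8224, lay in an intron 574 bp downstream of the nearest Vha55 TSS.

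Subunit C belongs to the peripheral stalk of V1 and subunit D to its rotor. Vha44 (FBgn0287825), for subunit C, had a region at chr2R:16336633-16336821 with signal values of 189 in the optimal list, 113 in replicate 1 and 73.4 in replicate 2. Its summit lay 95 bp upstream of Vha44 and 28 bp upstream of a TSS of Hmgs, which encodes hydroxymethylglutaryl-CoA synthase of the mevalonate pathway. The summit was also in the 5′ untranslated region of Hmgs, 642 bp downstream of another Hmgs TSS. Vha36-1 (FBgn0022097), for subunit D, had the second highest value of the family, 500 at rank 183, at chr2R:15541238-15541532. Replicate 1 gave 282 and replicate 2 gave 212, at ranks 205 and 200, so both replicates placed it near the same rank. The summit was 46 bp upstream of Vha36-1 and 26 bp upstream of CG8187. The testis form Vha36-2 had no promoter region in any list, and an optimal region of 112 lay 2161 bp downstream of its TSS, at the TSS of Cam, the calmodulin gene. Vha36-3, which was not assigned to a class, had none either.

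The stalk subunits E and G, the rotor subunit F and the regulatory subunit H had no gene with an optimal promoter region. Vha26 (E), Vha14-1 (F) and Vha13 (G) had no region within 1000 bp of a TSS in any of the 4 lists, nor did the testis form Vha14-2. The nearest optimal summit to Vha13 lay in its own 3′ untranslated region, 1231 bp downstream of its TSS and 433 bp upstream of a TSS of subdued, with a signal value of 112. VhaSFD, the single gene for subunit H, had a region in replicate 1 alone, with a signal value of 74.5 at rank 2884 and a summit 26 bp upstream of its TSS. No region of replicate 2 or of the pooled list was there. The nearest optimal summit to VhaSFD, with a value of 483, lay 6956 bp from its TSS in an intron of the neighbouring gene Cyt-c-p, for cytochrome c.

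Subunit a, the membrane arm that steers the pump to its membrane, is encoded by 5 genes, and 1 of them had the highest value of the family. Vha100-2 (FBgn0028670) had a region at chr3R:18397052-18397423 with signal values of 522 in the optimal list, 264 in replicate 1 and 263 in replicate 2. This was rank 167 of the optimal list, rank 246 in replicate 1 and rank 116 in replicate 2. Of the 3207 genes with an optimal promoter region, 95.1% had a strongest value at or below it. The summit lay 284 bp upstream of the downstream TSS of Vha100-2, inside an intron of its longer transcript and in the 5′ untranslated region of Vti1b, a SNARE gene on the other strand, 217 bp past the Vti1b TSS. Vha100-2 had 4 optimal promoter regions, while the other 6 genes had 1 each, and 75.3% of all genes with one had exactly 1. The second Vha100-2 region shared nearly the same interval, with a value of 104 and a summit 484 bp upstream of the same TSS. Apart from the strong region, replicate 1 listed a weak one there, 19.5 at rank 16303 with a summit 538 bp upstream, and replicate 2 listed none. Another region, of 118, lay 542 bp downstream of the upstream TSS, and was listed at 82.0 in replicate 1 and 30.6 in replicate 2. The last, of 120, lay 235 bp upstream of that TSS, with 86.6 in replicate 1 and 34.1 in replicate 2. The replicate lists are on scales of their own, with a signal value at rank 5817 of 45.7 in replicate 1 and 28.1 in replicate 2, so these pairs of values cannot be compared between replicates.

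The other subunit a genes had no optimal promoter region. Vha100-4, the gut form, lies on the same strand and starts 517 bp past the end of Vha100-2, and it had no pooled region in the gene or within 5000 bp of it. Vha100-3, a testis form, had no promoter region, and its nearest optimal region, 98.3, was in an intron of sano 4722 bp from its TSS. Vha100-5 had a weak pooled region of 27.3, with 17.3 in replicate 1 and 8.96 in replicate 2, 15 bp upstream of its TSS. Vha100-1, the neuronal form, had a region of 54.4 in replicate 1, at rank 4581, and of 54.2 in replicate 2, at rank 2499. These lay at chr3R:29131030-29131425 and chr3R:29130860-29131229 and overlapped, with summits 35 bp downstream and 148 bp upstream of the nearest TSS. Both were among the 5817 strongest of their replicate, yet the pooled list had no region in the gene or within 5000 bp of it.

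Subunit c forms the proton-carrying ring. Vha16-1 (FBgn0262736) was the only 1 of 5 c genes with a promoter region in any list. At chr2R:6632267-6632662 its signal values were 97.0 in the optimal list, 49.7 in replicate 1 and 55.0 in replicate 2, the lowest optimal value of the 7 genes. The summit lay 81 bp upstream of the second TSS, in an intron of the longer transcript. At the first TSS, replicate 2 alone listed a stronger region of 104, 112 bp upstream, which overlapped no pooled region. Its rank in replicate 2 was 921. A further optimal region of 139 lay in an intron, 1678 bp downstream of the nearest TSS. The testis form Vha16-4 and the unassigned Vha16-2, Vha16-3 and Vha16-5 had none, and the nearest optimal summit to these lay between 12858 bp away for Vha16-2 and 67591 bp away for Vha16-4.

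Subunit e is a small membrane protein encoded by 4 genes. VhaM9.7-b (FBgn0028663) had a region at chr3L:21539410-21539595 with signal values of 123 in the optimal list, 61.3 in replicate 1 and 65.0 in replicate 2. Its summit lay 379 bp upstream of VhaM9.7-b but 36 bp upstream of COX8, for a subunit of cytochrome c oxidase. VhaM9.7-a had a pooled region of 57.9, under the lowest optimal value, with 31.8 in replicate 1 and 23.9 in replicate 2. That summit was 153 bp upstream of VhaM9.7-a and 82 bp upstream of CG11586. VhaM9.7-c had a region of 82.9 in replicate 2 at rank 1328 and none in replicate 1 or the pooled list. VhaM9.7-d had a region of 11.4 in replicate 2 alone, 634 bp downstream of its TSS.

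The c'' and d subunits, which complete the ring and couple it to the stalk, had no optimal promoter region. VhaPPA1-1 and its testis form VhaPPA1-2, which lie 2052 bp apart with RpS5b between them, had no region in any list, and the nearest optimal summit was 50182 bp and 46398 bp from their TSSs. VhaAC39-1 had a region of 12.2 in replicate 1 alone. VhaAC39-2 was the only testis or gut form with any promoter region. Its pooled region of 51.3, at rank 7981, lay 112 bp upstream of the TSS with 40.2 in replicate 1, while replicate 2 listed 9.67 at another place, 733 bp upstream, where it overlapped a second, weaker pooled region of 22.0 with a summit 853 bp upstream. The accessory genes VhaAC45 and VhaAC45RP had no promoter region in any list. ATP6AP2, an accessory subunit gene once named VhaPRR and not a member by symbol, had a promoter region of 154 in the optimal list, 93.1 in replicate 1 and 46.4 in replicate 2.

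**Figure D3:**
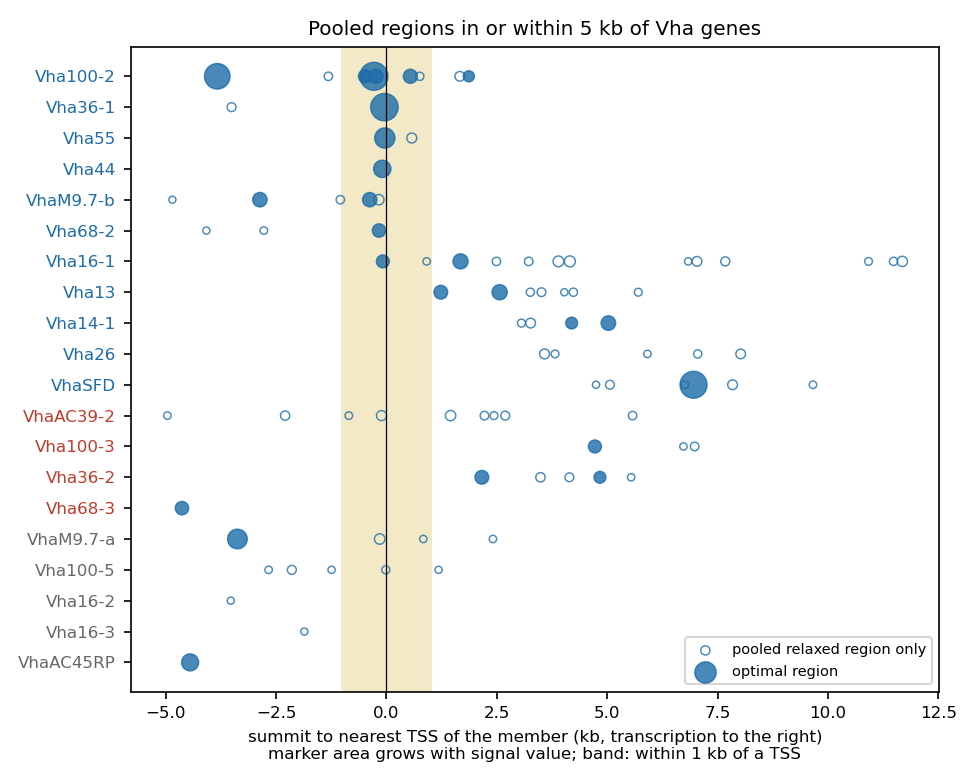
Distance from each pooled region's summit to the nearest TSS of the Vha gene (horizontal axis, kb, direction of transcription to the right) for the 20 genes with a pooled region in the gene or within 5 kb of it. Filled markers are optimal regions, marker area grows with the signal value and label colours give the class (blue broadly expressed, red testis, grey unassigned); in the band within 1 kb of a TSS, filled markers appear for the 7 genes named in the text.

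Most of the 7 regions also belonged to a neighbour. The strongest region of 5 of the 7 genes, 71.4%, lay within 1000 bp of a TSS of another gene, against 54.4% of the 3207 genes with a promoter region. These were shared with CG8187, Hmgs, Snx3, Vti1b and COX8. The regions of Vha16-1 and Vha68-2 counted for no other gene. When a region counted only for the gene with the nearest TSS, 4 Vha genes kept one, Vha100-2, Vha16-1, Vha55 and Vha68-2, against 17.9% of all genes. Vha100-2 kept its regions of 118 and 120, whereas its strongest, of 522, had a summit nearer to a TSS of Vti1b. The Vha36-1 region of 500 lay nearer to CG8187. Which gene of a pair a shared region acts on was not tested. The distance from summit to TSS was 95 bp at the median of the 7 genes and 161 bp at that of all genes with one.

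The genes with and without a region differed in their annotation. Of the 7 genes, 2 had a single TSS, whereas the 8 broadly expressed genes without a region all had 1. The median gene length was 4286 bp in the former and 2217 bp in the latter. With only the most upstream TSS of each gene counted, 7 Vha genes still had a region, beside 21.1% of all genes. Counting any region in the gene or within 5000 bp of it gave 15 of 33 genes in the optimal list, beside 44.3% of all genes. In the pooled list it gave 20 of 33, beside 65.2%, and 4 broadly expressed genes, Vha68-1, VhaAC39-1, VhaAC45 and VhaPPA1-1, had no pooled region even at that distance.

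The 10 optimal promoter regions of the 7 genes were searched for 7 motifs, on either strand and up to 100 bp from the summit. The Hnf4 site CAAAGTCCA and the wider Hnf4 direct repeat were at 0 of the 10. They were rare at all 3130 optimal promoter regions too, at 0.958% and 0.703%, so these letters are missing from most regions of this kind. GGTCACAC was at 2 of the 10, Vha68-2 and Vha16-1, against 3.55% of optimal promoter regions. At Vha68-2 it began 5 bp from the summit. GAGAGAG was at 2, in Vha16-1 and the second Vha100-2 region, against 7.35%. The Vha100-2 copy counted here, 21 bp from that summit, is not the one printed, which lay beyond 100 bp of the summit upstream of the first TSS. TATCGATA was at 0, against 7.09%, and the copy shown at Vha55 lay beyond 100 bp of the summit. CACGTG, the core of E-box sites, was at 2, Vha44 and Vha55, against 2.49%. It began 53 bp from the summit at Vha44 and 98 bp from it at Vha55. Within 50 bp of the summit CACGTG was at 0 of the 10, against 1.18%. At Vha44 it was part of TCACGTGA, a site of the lysosomal gene regulator Mitf and its relatives, which was at 8 of the 3130 regions. A match is a description of the letters, and with 10 regions these counts carry no test.

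The motifs were also searched for at the promoters of all 33 Vha genes, those with an optimal region and those without. The window ran from 250 bp before to 50 bp after each TSS. GGTCACAC was in this window at 5 of the 33 genes, against 8.69% of all genes. At Vha26 and Vha100-1 it began 2 bp before the TSS in each case. TATCGATA was at 2 genes, against 10.2%, and at VhaSFD it began 23 bp before the TSS. These 3 promoters are shown because Vha26 had no region in any list, and VhaSFD and Vha100-1 had theirs in replicate lists only. TCACGTGA was at 2 genes, Vha44 and Vha68-2, and at 28 of all 13981 genes. GAGAGAG was at 4 genes, against 9.07%, and CACGTG at 5, against 5.32%. The Hnf4 site and the direct repeat were at 0 of the 33, against 0.408% and 0.243%. Below, capitals mark TATCGATA at VhaSFD (chr2L:16727827-16727886, minus strand) and GGTCACAC at Vha26 (chr3R:5591713-5591769, plus strand) and Vha100-1 (chr3R:29131143-29131199, plus strand).
VhaSFD: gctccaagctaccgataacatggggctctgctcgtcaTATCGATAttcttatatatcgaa
Vha26: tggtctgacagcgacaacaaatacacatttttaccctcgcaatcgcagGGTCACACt
Vha100-1: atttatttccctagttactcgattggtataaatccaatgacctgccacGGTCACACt

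Genes that work with the pump were counted in the same way. Of 13 partner genes for pump assembly, counter-ion flow, pH and nutrient sensing, 2 had an optimal promoter region. These were ClC-a, a chloride channel gene, at 81.2 and Mitf at 73.4. With only optimal regions supported by the strongest regions of both replicates the partner count was 0 of 13, beside 17.9% of all genes. For the 17 lysosome genes named next it was 7. CAH1 and CAH2, for carbonic anhydrases, had pooled regions of 41.9 and 29.3 and no optimal one. Of 17 lysosome genes, 8 had an optimal promoter region, or 47.1%. The highest values were those of Hexo2, a hexosaminidase gene, at 487, Ppt1 at 230, CtsF at 151 and CtsB at 140, of which CtsF and CtsB encode cathepsins. Cln3 and Cln7 had no optimal one, with a pooled region of 20.9 at Cln3 and a replicate 1 region of 66.9 at Cln7. In the pooled relaxed list the lysosome count was 14 of 17. The background for these counts is the 22.9% and 41.5% given above, and none of these differences was tested.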

How the data were processed

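Chromatin immunoprecipitation with sequencing was done on 2 biological replicates of Hnf4-GFP larvae. The authors deposited dm6 region lists in narrowPeak format, whose signal values give the enrichment of each region. Per the deposited file descriptions, replicate and pooled lists were called against the same control and the optimal list was derived from all 3. No label or header used here names the aligner or the peak caller. The dm3 lists were not used here.

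Regions were placed on Ensembl release 115 (BDGP6, 13981 genes, 19643 TSSs), and all lay within the Release 6 chromosome lengths. A summit was the deposited start plus offset, written 1-based. Every Vha gene is named, with neighbours within 1000 bp and up to 4 genes with and 2 without a region from the partner and lysosome lists. Members, classes, lists and motifs were chosen with earlier results of these data known, so counts are given beside those of all genes and no test was run. Region placement and motif search were checked on simulated data. Alternatives were other windows, TSS choices, overlap rules, lists and each replicate alone. Python 3.11.15, numpy 2.4.6, pandas 2.3.3 and matplotlib 3.10.9 were used.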

Additional observations from a re-analysis of the deposited data

How the results depend on the processing

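The count of 7 Vha genes with a promoter region stayed within 1.5 times in 9 of 12 alternatives, from 5 to 10. It was 4 with the nearest TSS only and 13 in the full relaxed list of either replicate, 2 alternatives chosen after seeing the data. The count of 7 broadly expressed genes stayed between 5 and 9 in 11 of 12 and was 4 with the nearest TSS only. With the 2000 bp window Vha13 was added, for a count of 8. The count of 0 of 8 testis or gut genes held in 9 of 12 alternatives, which covered from 14.8% to 27.3% of all genes. It was 1, VhaAC39-2, in the pooled relaxed list and in the full relaxed list of each replicate. That is 12.5%, beside 41.5%, 44.7% and 45.0% of all genes. The 7 genes had a median signal value of 93.5 without replicate 2 and 104 without replicate 1, against 189 in the optimal list. The lists have different scales, and the strongest region of a gene can differ between lists. The 104 was the replicate 2 region at the first TSS of Vha16-1, which overlapped no pooled region. At the optimal Vha16-1 region replicate 2 had 55.0. Of the 10 promoter regions, 5 had any of the 7 motifs within 100 bp of the summit, 3 within 50 bp and 7 within 200 bp, against 20.6%, 10.2% and 37.1% of optimal promoter regions. No paired analysis was possible because there is 1 group. With no read counts, depth is unknown, so a gene without a listed region may have had a signal below the length of the list.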

Other observations

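Several Vha promoters had a region that was strong in a replicate and missing from the pooled list: Vha16-1 at its first TSS and VhaM9.7-c in replicate 2, VhaSFD in replicate 1 and Vha100-1 in both. Of the 5817 strongest regions of replicate 1, 350, or 6.02%, overlapped no region of the pooled list, and the number was 350 for replicate 2 as well. Of the 4246 strongest regions of replicate 1 that overlapped a strongest region of replicate 2, 88 overlapped no pooled region. At the level of genes, 271 of the 5144 with a promoter region in both full replicate lists had none in the pooled list. The optimal list is made of pooled regions, so these genes cannot appear in it. No reason for their absence was tested.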
